A study of Mus musculus with 18 samples.

Results

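The comparison described here is between injured and uninjured embryonic dorsal root ganglion (eDRG) spot cultures at 1 hour post injury (1 HPI), the earliest collection after axotomy. It used the 3 libraries titled 1HPI and the 3 titled Control, 6 of the 18 libraries of the series, and 13771 of 47643 listed genes, those over 1 CPM, the count scaled to the size of the library, in at least 3 of the 18 libraries. Ganglia came from CD-1 mouse embryos at e13.5, with no engineered allele or transgene in any group, and dissociated neurons were plated as a spot from which axons grow outward. Every culture, control included, received nerve growth factor and fluorodeoxyuridine (FDU), a nucleoside analogue that kills dividing cells, so that the cultures are enriched for sensory neurons. The 1 HPI cultures had their axons cut with a blade 1 hour before collection on day in vitro (DIV) 7, and the control cultures were collected uncut on DIV7. The cultures hold no target tissue, and the immune and supporting cells of a nerve are few, which limits them as a model of nerve injury. Libraries of the same replicate number were treated as a batch, giving 3 pairs. The labels do not say whether replicates came from separate litters or cultures, and the p-values then measure only the spread between these libraries, which may be technical.

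Cutting an axon lets calcium enter at the lesion, depolarises the neuron and activates kinases that are carried toward the soma. The earliest transcripts to respond in most cells are the immediate early genes, whose promoters are bound by factors already present, such as CREB and SRF, so that no new protein is needed. Many of them encode transcription factors, among which the Fos and Jun proteins dimerise as AP-1, and the slower regeneration programme of sensory neurons, with Atf3, Sox11 and Gal among its members, follows later.

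The 3 control libraries held 13756966 to 20428645 counts on genes and the 3 libraries of 1 HPI held 15571090 to 20302419. A count of 3, taken as the limit of detection, was worth 0.147 to 0.218 CPM, and this limit covers counting error only. Reads on no gene took 27.0% to 31.2% of the control counts and 27.1% to 30.7% of the 1 HPI counts. All 10 sensory neuron markers were detected, and their summed level was 11067 to 11311 CPM in control and 11014 to 11752 CPM at 1 HPI. Satellite glia and Schwann cell markers summed to 172 to 240 CPM in control and 166 to 229 CPM at 1 HPI, nearly all of it S100b and Mbp, and Mag, a myelin-associated glycoprotein, had at most 3 counts in each of the 6 libraries. Myeloid markers summed to 3.56 to 5.34 CPM and 4.17 to 4.86 CPM, with Ptprc, Adgre1 and Itgam at no more than 3 counts in any of the 6 libraries, and endothelial markers to 1.53 to 1.70 CPM and 0.888 to 1.38 CPM. Fibroblast markers summed to 3.27 to 21.6 CPM in control and 4.55 to 16.1 CPM at 1 HPI. A 16 HPI library, outside the 2 groups but in the shared estimate of spread, held 46161 CPM on the residual rRNA list against 6909 to 10294 CPM in the 6 libraries compared. Leaving it out gave 4 genes over 2-fold and 44 past the test, beside the 4 and 38 described next.

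One hour after injury the transcriptome of the cultures differed little from control, and the 2 largest changes past the test were in transcription factors of AP-1. By edgeR's quasi-likelihood test with an adjusted p (Padj) under 0.05 and a change over 2-fold, 4 genes were higher at 1 HPI, Fos, Fosb, Zfp185 and Arc, which is 0.029% of the genes tested, and 0 were lower. Without the 2-fold limit 38 genes passed the test, 0.276% of those tested, of which 13 were higher (0.0944%) and 25 lower (0.182%). The split was 14 higher and 17 lower with upper-quartile scaling, and 9 higher (0.0654%) and 5 lower (0.0363%) once the GC content and exon length of the genes were taken into account. The absolute log2 fold change had a median of 0.09 and a 90th percentile of 0.27 over all genes tested, and 19 genes differed by over 2-fold at any p. At an unadjusted p under 0.05 there were 761 higher genes (5.53%) and 1008 lower genes (7.32%). RNA from a culture mixes all its cells, so that fewer cells of a type and less RNA per cell cannot be told apart. Without the batch term, 0 genes passed the test and 457 had an unadjusted p under 0.05. The count of 38 rested on all 6 libraries, since it was 11, 4 and 8 without control replicates 1, 2 and 3, and 3, 4 and 65 without 1 HPI replicates 1, 2 and 3.

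Fos, an AP-1 subunit encoded on chromosome 12 (ENSMUSG00000021250.13, 85473890 to 85477273 on GRCm38), had the smallest p of all genes. Its level in CPM normalised by trimmed means of M values (TMM) was 1.07, 1.77 and 0.483 in the control replicates 1, 2 and 3 and 4.17, 5.04 and 8.82 in the same replicates of 1 HPI, from 10 to 24 counts and from 78 to 142 counts. Every injured library lay above every control library, and the pair of replicate 3 was farthest apart. The log2 fold change was 2.52 ± 0.31 (SE, Padj = 0.000745), a 5.73-fold difference, and its log2 values within the 3 batches were 1.86, 1.45 and 3.91.

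Fosb (ENSMUSG00000003545.3, chromosome 7 from 19302696 to 19310051), which encodes another partner of the Jun proteins, was scarce in the uninjured cultures, at 0.204, 0.369 and 0.338 CPM or 4 to 7 counts a library. At 1 HPI it had 1.497, 1.198 and 3.727 CPM, or 24 to 60 counts. The groups were apart here too, and the control level stood close to the limit of detection. The log2 fold change was 2.83 ± 0.41 (SE, Padj = 0.00415), or 7.10-fold. The other 2 members of the family that were tested gave smaller values. Fosl2 had 8.56 ± 0.18 CPM in control and 11.1 ± 1.84 CPM after injury (SD, n = 3), giving log2 0.37 ± 0.13 (SE, Padj = 0.218). Fosl1 had 1.91 ± 0.50 and 1.82 ± 0.23 CPM (SD, n = 3), a log2 difference of -0.10 ± 0.24 (SE, Padj = 0.901).

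The Jun family gave values on both sides of control. Jun (ENSMUSG00000052684.4, chromosome 4 from 95049034 to 95052222), the main partner of Fos, had 49.0, 30.6 and 38.4 CPM in control and 40.7, 21.9 and 26.0 CPM at 1 HPI. It was lower in each of the 3 batches while the ranges of the groups overlapped, and its log2 fold change of -0.43 ± 0.10 (SE) gave Padj = 0.0636. Junb, which can act against Jun within AP-1, had 1.78, 1.63 and 2.27 CPM in control and 3.53, 2.00 and 4.72 CPM at 1 HPI, a log2 fold change of 0.84 ± 0.22 (SE, Padj = 0.100). Jund, which is made at a steady level in most cells, had 106 ± 7.34 and 104 ± 5.07 CPM (SD, n = 3). None of the 3 passed the test, with Jun on the lower side and Junb on the higher. In a wider test of 23606 genes with at least 10 counts over the 18 libraries, Jun passed, at log2 -0.42 ± 0.09 (SE, Padj = 0.0303).

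To show the sequence before the Fos, Fosb, Junb and Zfp185 start sites, the stretch from 160 to 11 bases upstream was taken from RefSeq on GRCm38.p6, 150 bases each, printed 5′ to 3′ in the direction of transcription. Capitals mark TGACG, the core of the cyclic AMP response element that CREB binds, searched on both strands as TGACG and CGTCA. The windows are chr12:85473730-85473879 on the plus strand for Fos, chr7:19310056-19310205 on the minus strand for Fosb, chr8:84978759-84978908 on the minus strand for Junb and chrX:72987179-72987328 on the plus strand for Zfp185.
Fos: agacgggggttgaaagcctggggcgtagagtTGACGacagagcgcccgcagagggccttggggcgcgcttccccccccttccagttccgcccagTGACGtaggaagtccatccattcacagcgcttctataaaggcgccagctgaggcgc
Fosb: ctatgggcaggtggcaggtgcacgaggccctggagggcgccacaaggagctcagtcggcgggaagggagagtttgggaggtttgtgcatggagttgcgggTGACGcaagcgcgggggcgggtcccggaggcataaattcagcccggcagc
Junb: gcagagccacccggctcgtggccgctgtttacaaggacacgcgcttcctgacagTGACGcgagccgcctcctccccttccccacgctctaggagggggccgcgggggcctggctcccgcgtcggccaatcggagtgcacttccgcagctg
Zfp185: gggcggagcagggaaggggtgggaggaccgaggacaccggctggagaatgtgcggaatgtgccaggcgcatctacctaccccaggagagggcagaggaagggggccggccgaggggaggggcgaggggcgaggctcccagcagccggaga
Fos held 2 matches in this window, 129 and 66 bases before the start site, while Fosb held 1 at 60 bases and Junb 1 at 106 bases. The Zfp185 window held 0 of them. Over the 250 bases before the start, TGACG was present in 17.9% of 27025 promoters of the table and in 27.8% of the 10145 tested genes found there. It was present in 4 of the 11 promoters found among the 13 higher genes (Adh5, Fos, Fosb and Lbh), in 4 of the 23 found among the 25 lower genes, and in 13 of the 21 found among the tested immediate early regulators. The CArG box, the element that SRF binds, was searched on both strands too and was present in 0 of the 11, 0 of the 23 and 1 of the 21 (Srf), against 1.09% of the tested genes found there. Bases farther than 250 before the start were not searched, so a count of 0 does not mean that a gene lacks the element. A match describes the letters only, and binding was not measured. Promoters of Arc and Ube2w were not analysed here.

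Zfp185 (ENSMUSG00000031351.15, chromosome X from 72987339 to 73031543) encodes a LIM domain protein that associates with the actin cytoskeleton. It had 0.407, 0.369 and 0.724 CPM in control and 1.604, 1.348 and 2.671 CPM at 1 HPI, from 5 to 15 counts and from 27 to 43 counts. The groups did not overlap, and the 3 batches gave close log2 values of 1.726, 1.603 and 1.736. The fitted log2 fold change was 1.86 ± 0.29 (SE, Padj = 0.00879), or 3.63-fold.

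Arc (ENSMUSG00000022602.14, chromosome 15 from 74669083 to 74672570) encodes a cytoskeleton-associated protein that removes AMPA receptors from synapses and is induced by neuronal activity. Its level was 1.17, 0.813 and 0.966 CPM in control against 2.08, 2.10 and 2.86 CPM at 1 HPI, with 11 to 23 counts and 39 to 46 counts. All 3 injured libraries were above the controls, at a log2 fold change of 1.24 ± 0.23 (SE, Padj = 0.0260), or 2.36-fold. The calls of Zfp185 and Arc were lost without control replicate 2, without control replicate 3 or without 1 HPI replicate 1, that of Arc also without 1 HPI replicate 2, and that of Fosb without control replicate 3. Fos kept its call whichever of the 6 libraries was left out.

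**Figure D1:**
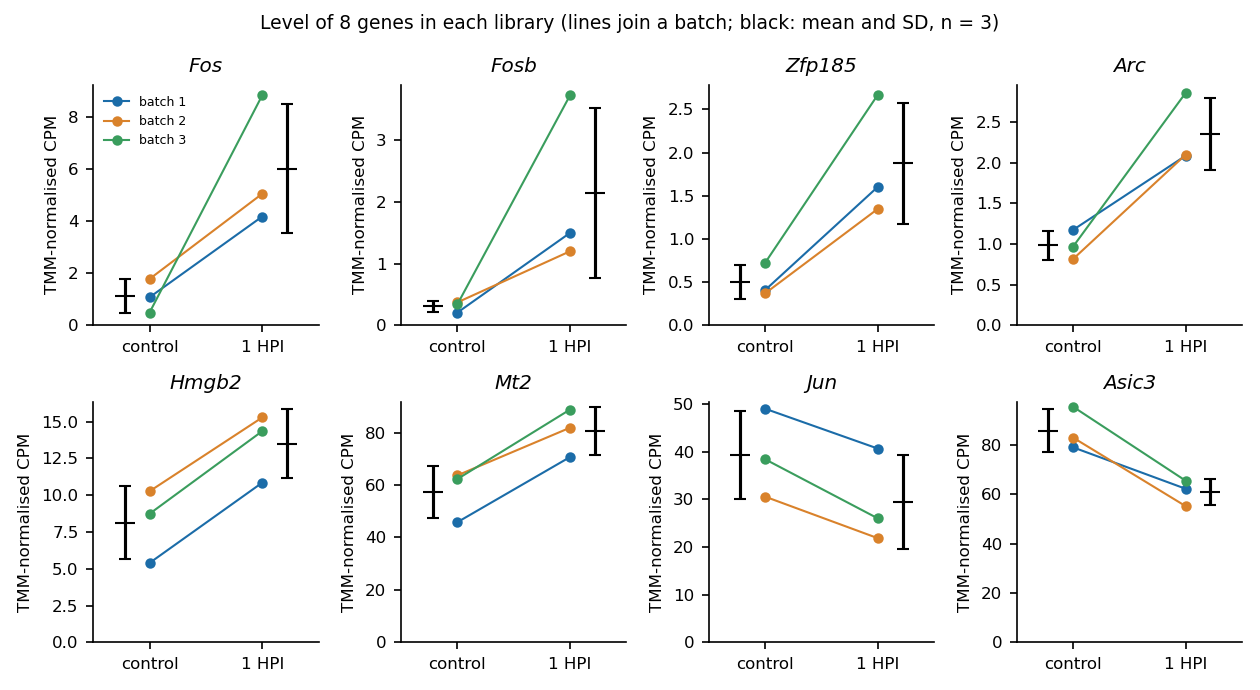
TMM-normalised CPM (vertical axis, from 0) of 8 genes in each control and 1 HPI library, with lines joining the libraries of a batch and black bars for the mean and SD (n = 3). Fos runs from 0.483 to 1.77 CPM in control and from 4.17 to 8.82 CPM at 1 HPI, while Jun and Asic3 are lower at 1 HPI in each batch.

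Of 37 immediate early transcription regulators, 29 were tested and the others lay under the filter. This list and those below were chosen with earlier results of these data known, so their shares beside those of all genes are descriptions only. Fos and Fosb passed the test and 0 members passed on the lower side. At an unadjusted p under 0.05, 10 of the 29 were higher (34.5%, against 5.53% of all genes tested) and 1 lower (3.45%, against 7.32%), and the median log2 fold change was 0.18, against 0.00 for all genes. The members past that looser limit, beyond those named, were Egr1, Klf10, Klf4, Ier5, Maff and Ier3, singled out after their values were seen, at log2 fold changes of 0.29 to 0.81. Egr1, a zinc finger factor of the same early class, had 2.65, 2.29 and 2.32 CPM in control and 3.53, 3.25 and 5.84 CPM after injury, a log2 fold change of 0.81 ± 0.24 (SE, Padj = 0.154). Atf3, a marker of injured sensory neurons also chosen after its values were seen, had 7.64, 14.2 and 18.6 CPM in control and 11.4, 12.8 and 19.2 CPM at 1 HPI. The groups of Atf3 overlapped throughout, and its log2 difference was 0.10 ± 0.25 (SE, Padj = 0.909).

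Several immediate early genes were too scarce for the filter. Nr4a1, an orphan nuclear receptor of the immediate early class, had 0, 4 and 7 counts in the control replicates and 12, 17 and 28 counts at 1 HPI. In the wider test of 23606 genes, in which 65 passed, its log2 fold change was 2.36 ± 0.48 (SE, Padj = 0.0222), and it was the only gene added to the 4 over 2-fold. Nr4a3 had 0, 4 and 1 counts in control and 4, 8 and 6 counts at 1 HPI, and Npas4, a factor specific to neuronal activity, had 0, 5 and 0 against 5, 8 and 6. Neither passed in that wider test (Padj = 0.45 and 0.51). Egr2, Egr3 and Egr4 had no more than 7 counts in any of the 6 libraries.

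Among 20 tested activity-regulated effectors, Arc alone passed the test. At an unadjusted p under 0.05, 4 were higher (20%, against 5.53% of all genes) and 1 lower (5%, against 7.32%). The list median was 0.10, or 0.06 with GC and length offsets. The medians of the list within batches 1, 2 and 3 were 0.04, -0.02 and 0.14, so that batch 2 lay on the other side. Plk2, a kinase of activated synapses, had 71.9 ± 14.9 CPM in control and 82.4 ± 13.8 CPM at 1 HPI (SD, n = 3), and Nrn1, a neurite outgrowth factor, 404 ± 92.4 and 449 ± 83.7 CPM (SD, n = 3). In neither did the difference of the means exceed the SD, and both were higher in each batch, at log2 0.20 ± 0.07 and 0.16 ± 0.06 (SE, Padj = 0.201 and 0.229).

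The 18 genes of MAP kinase feedback, phosphatases and adaptors that restrain MAP kinase signalling, held 0 that passed the test. At an unadjusted p under 0.05, 3 were higher (16.7%, against 5.53% of all genes) and 2 lower (11.1%, against 7.32%). With GC and length offsets 3 were higher (16.7%, against 5.27%) and 1 lower (5.56%, against 4.76%). Dusp6, an ERK phosphatase, had 42.6, 36.1 and 18.1 CPM in control and 49.98, 49.73 and 42.92 CPM at 1 HPI, so that the 3 injured libraries stood close together above a scattered control. Its log2 fold change was 0.60 ± 0.15 (SE, Padj = 0.0974), and it passed in the wider test, at 0.61 ± 0.13 (SE, Padj = 0.0310). Dusp16, a JNK phosphatase, was on the other side, with 4.56 ± 0.24 CPM in control and 3.11 ± 0.60 CPM at 1 HPI (SD, n = 3), at log2 -0.55 ± 0.16 (SE, Padj = 0.151).

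The remaining 9 genes that rose did so by less than 2-fold, and they do not encode AP-1 factors. Hmgb2, a chromatin protein that bends DNA, had 5.40, 10.3 and 8.74 CPM in control and 10.9, 15.3 and 14.3 CPM at 1 HPI. It was higher in every batch and its groups were apart by less than 1 CPM, at a log2 fold change of 0.74 ± 0.12 (SE, Padj = 0.0133). Mt2, a metallothionein that binds zinc and copper, had 45.8, 63.7 and 62.3 CPM in control and 70.7, 81.8 and 88.8 CPM at 1 HPI, a log2 fold change of 0.50 ± 0.09 (SE, Padj = 0.0214). Fam122b was at 5.86, 5.32 and 7.82 CPM in control and at 7.91, 8.69 and 13.3 CPM after injury, which came to log2 0.63 ± 0.12 (SE, Padj = 0.0312). These were the largest of the smaller increases.

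Arrdc3, an arrestin-like protein that sorts surface receptors, had 70.1 ± 2.24 CPM in control and 89.9 ± 6.16 CPM at 1 HPI (SD, n = 3). Rimklb, which joins glutamate to N-acetylaspartate to make a neuronal dipeptide, had 39.4 ± 5.03 and 50.3 ± 2.55 CPM (SD, n = 3). Lbh, a transcription cofactor, had 176 ± 24.9 and 217 ± 19.5 CPM (SD, n = 3), and was the only one of the 13 whose control and injured ranges overlapped. Ube2w, a ubiquitin-conjugating enzyme, Adh5, which clears formaldehyde and S-nitrosoglutathione, and Cdc42se2, a Cdc42 effector, rose by log2 0.25, 0.24 and 0.21. Their Padj was 0.0470, 0.0470 and 0.0317. All 13 moved the same way in the 3 batches, where 19.9% of all genes were higher in each, and 12 did not overlap between groups, where 3.72% of all genes were higher without overlap. The test had chosen these 13 on the same libraries, so these shares describe them and support nothing further. The 25 lower genes described next also moved the same way in the 3 batches, where 19.7% of all genes were lower in each, and 10 of them did not overlap, where 3.3% of all genes were lower without overlap.

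**Figure D2:**
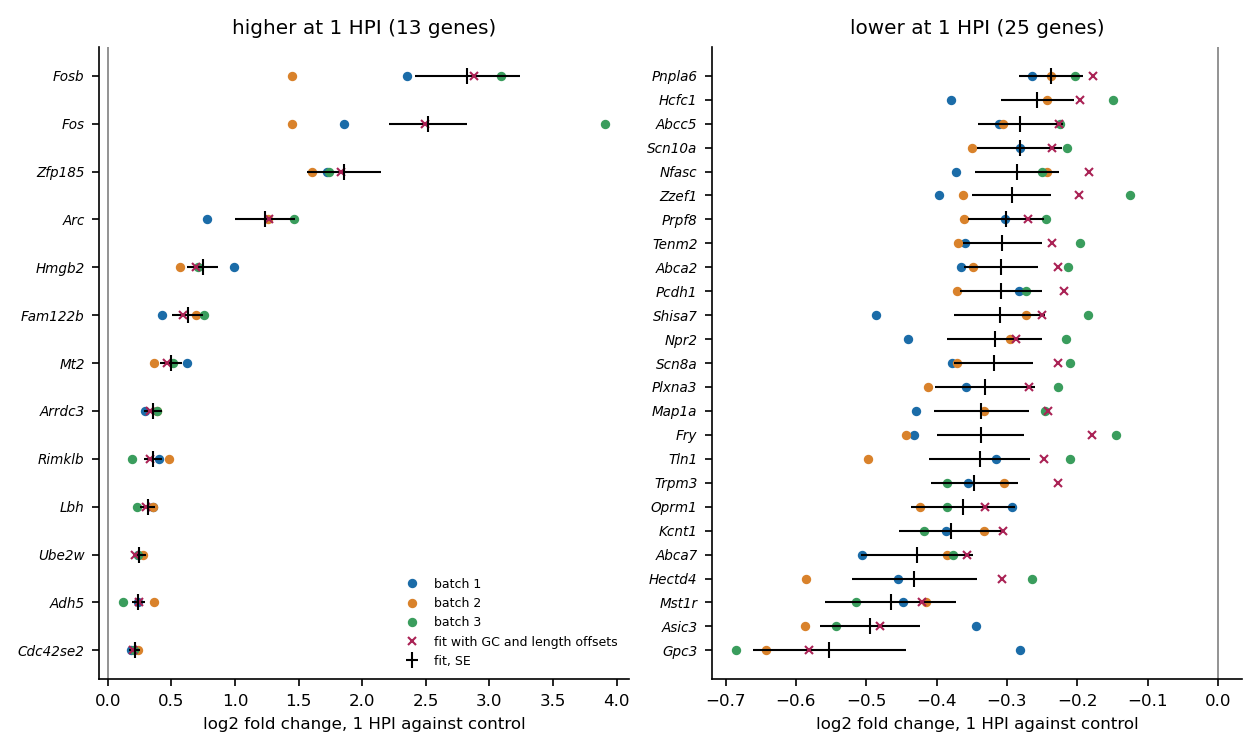
Log2 fold change at 1 HPI against control (horizontal axis) of the 13 genes higher and the 25 genes lower with Padj under 0.05, as the fitted value with its SE (black), the value in each batch (circles) and the fit with GC and length offsets (crosses). The higher genes reach 2.83 (Fosb), and the lower genes lie between -0.55 (Gpc3) and -0.24 (Pnpla6).

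The 25 genes that fell went to between 0.68 and 0.85 of their control level, and 5 of them encode ion channels. Asic3 (ENSMUSG00000038276.12, chromosome 5 from 24413392 to 24417835), an acid-sensing sodium channel of nociceptors and muscle afferents, had the smallest p among them. It had 79.1, 83.0 and 95.5 CPM in control and 62.3, 55.2 and 65.5 CPM at 1 HPI, with every injured library below every control. The log2 fold change was -0.49 ± 0.07 (SE, Padj = 0.00415), to 0.71 of the control level, and the call was lost without 1 HPI replicate 2.

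Scn8a, the sodium channel Nav1.6 of axon initial segments and nodes, had 114, 131 and 135 CPM in control and 87.8, 102 and 117 CPM at 1 HPI. It fell by 0.32 on the log2 scale (SE 0.06, Padj = 0.0214), with ranges that overlapped slightly. Trpm3, a heat-activated channel, had 59.6, 53.3 and 67.2 CPM against 46.6, 43.2 and 51.4 CPM, and Kcnt1, a sodium-activated potassium channel, 52.8, 46.2 and 57.1 CPM against 40.4, 36.7 and 42.7 CPM. Both were lower in every injured library than in any control, at log2 -0.35 ± 0.06 and -0.38 ± 0.07 (SE, Padj = 0.0214 and 0.0317). Scn10a, the nociceptor sodium channel Nav1.8, had 549, 413 and 507 CPM in control and 452, 324 and 437 CPM at 1 HPI, at log2 -0.28 ± 0.06 (SE, Padj = 0.0497).

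Ion channel genes as a group lay below control. Of 254 listed, 161 were tested, of which 121 were lower (75.2%, against 49.3% of all genes) and 40 higher, with a median log2 fold change of -0.09. At an unadjusted p under 0.05, 42 were lower (26.1%, against 7.32%) and 2 higher (1.24%, against 5.53%). The median within the 3 batches was -0.10, -0.10 and -0.05. The 2 on the higher side, named after their values were seen, were Kcnip1, a potassium channel partner, at log2 0.21 ± 0.05 (SE, Padj = 0.0831), and Kcnk3, a leak potassium channel, at 0.41 ± 0.12 (SE, Padj = 0.159).

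Of 13 tested sodium channel genes, 13 were lower, 2 past the test (Scn8a and Scn10a) and 9 at an unadjusted p under 0.05, with a median of -0.17. Scn9a, the nociceptor channel Nav1.7, had 638, 590 and 581 CPM in control and 549, 495 and 551 CPM at 1 HPI, at log2 -0.18 ± 0.06 (SE, Padj = 0.194). Potassium channels had 43 of 55 lower with a median of -0.12, calcium channels 16 of 20 with -0.09, and TRP channels 7 of 10 with -0.09. Ionotropic glutamate receptors had 10 of 12 lower with a median of -0.07, while P2X receptors, the ATP-gated channels, had 1 of 4 lower with 0.03. With offsets for the GC content and exon length of the genes, the medians of the potassium, calcium and TRP channels and the glutamate receptors were -0.07, -0.06, -0.04 and -0.02, and that of the sodium channels was -0.15. Calcium channels at an unadjusted p under 0.05 on the lower side then went from 5 to 1 of 20, and sodium channels from 9 to 7 of 13. Over all genes tested that share went from 7.32% to 4.76%. Whether the families differ from each other was not tested.

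Among the other 20 lower genes, transporters of the ABC class were Abca2, which moves lipids in neurons, at 150, 149 and 157 CPM in control and 117, 117 and 136 CPM at 1 HPI (log2 -0.31 ± 0.05, SE, Padj = 0.0171), Abca7 at log2 -0.43 and Abcc5 at -0.28. Adhesion and guidance molecules were the teneurin Tenm2 (-0.31), the protocadherin Pcdh1 (-0.31), neurofascin of nodes and initial segments (Nfasc, -0.29), the integrin linker talin (Tln1, -0.34), the semaphorin receptor Plxna3 (-0.33) and the heparan sulfate proteoglycan Gpc3. Gpc3 had 6.98, 11.6 and 11.2 CPM in control and 5.72, 7.39 and 6.89 CPM at 1 HPI, with overlapping ranges, at log2 -0.55 ± 0.11 (SE, Padj = 0.0319).

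Map1a, a microtubule-associated protein of mature axons and dendrites, had 1380, 1350 and 1607 CPM in control and 1024, 1072 and 1355 CPM at 1 HPI, at log2 -0.34 ± 0.07 (SE, Padj = 0.0351). Prpf8, the core of the spliceosome, had 124, 138 and 144 CPM against 101, 107 and 122 CPM, at log2 -0.30 ± 0.05 (SE, Padj = 0.0214). Receptors on the lower side were the mu opioid receptor Oprm1 (log2 -0.36), the receptor kinase Mst1r (-0.47) and Npr2, the C-type natriuretic peptide receptor that makes sensory axons bifurcate (-0.32). Pnpla6, the neuropathy target esterase, was at -0.24, and Fry, Zzef1, Hcfc1, Hectd4 and Shisa7 between -0.26 and -0.43. Abcc5, Tln1, Plxna3, Nfasc, Oprm1, Npr2, Hcfc1, Hectd4 and Shisa7 were named after their values were seen.

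The genes that fell had a long total exon sequence, which joins all annotated exons of a gene and is not a transcript length. Their total exon length had a median of 8797 bases, against 3707 for the 13 higher genes and 4418 for all genes, and 21 of the 25 exceeded 6000 bases, which 32.0% of all genes did. Their median exon GC content was 54.4%, against 49.4% for all. When the tested genes were divided into 5 near-equal bins by exon length, the median log2 fold change went from 0.04 in the shortest to -0.05 in the longest bin, and 18 of the 25 lower genes lay in the longest. Within batches the longest bin had medians of -0.06, -0.06 and -0.02. The bins of GC content went from 0.03 to -0.03, and the slope was steepest in batch 3.

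With offsets that remove each library's trend on GC content and exon length, 14 genes passed the test, of which 12 were among the 38. They were Fos, Fosb, Zfp185, Arc, Hmgb2, Lbh, Cdc42se2 and Arrdc3 on the higher side and Asic3, Abca2, Prpf8 and Gpc3 on the lower side. The added genes were Exoc5 (log2 0.27, Padj = 0.0470), a subunit of the exocyst, and Alcam (-0.25, Padj = 0.0444), an adhesion molecule, both named after their values were seen. Asic3, whose exons total 2423 bases, kept a log2 fold change of -0.48 and Padj = 0.00282. Scn8a, Trpm3, Kcnt1 and Scn10a were at log2 -0.23, -0.23, -0.31 and -0.24 with the offsets, each smaller in size than without them, and no longer passed the test (Padj = 0.0841, 0.147, 0.108 and 0.118). Over the 161 channels the offsets moved the median to -0.06, with 29 lower (18%, against 4.76% of all genes) and 4 higher (2.48%, against 5.27%) at an unadjusted p under 0.05. The median exon length of the channels was 5945 bases.

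**Figure D3:**
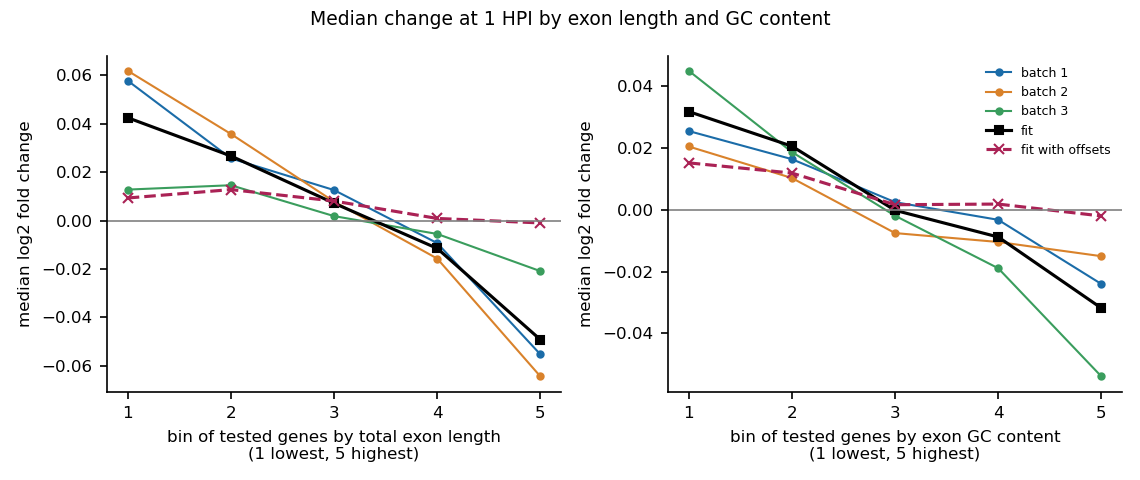
Median log2 fold change at 1 HPI against control (vertical axis) in 5 bins of the tested genes by total exon length (left) and exon GC content (right), for the fit, each batch and the fit with offsets. By exon length the fit falls from 0.04 to -0.05, and with offsets it stays within 0.013 of 0.

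In the stress and regeneration lists, 0 members passed edgeR's test at 1 HPI. Of 20 tested regeneration-associated genes, 2 were higher (10%, against 5.53% of all genes) and 2 lower (10%, against 7.32%) at an unadjusted p under 0.05. With GC and length offsets 1 was higher (5%, against 5.27%) and 2 lower (10%, against 4.76%). The median without offsets was 0.05. Jun and Flrt3, an adhesion protein at 25.1 ± 2.14 and 20.9 ± 1.83 CPM (SD, n = 3), were the 2 lower ones, and Gadd45a and Hif1a the 2 higher. Sprr1a, which is strongly induced in injured adult neurons, had 0 counts in the 6 libraries. The list of the DLK and JNK pathway, which carries the injury signal, had 8 of 11 members lower with a median of -0.06. At an unadjusted p under 0.05 there were 2 lower (18.2%, against 7.32% of all genes) and 0 higher. With GC and length offsets that count turned to 0 lower and 2 higher, with a median of -0.02, and the median exon length of the 11 was 8714 bases. Map3k12, which encodes DLK, had 67.5 ± 5.64 CPM in control and 61.8 ± 2.07 CPM at 1 HPI (SD, n = 3).

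Targets of p53 had 16 of 19 members higher, 6 of them at an unadjusted p under 0.05 (31.6%, against 5.53%) and 0 past the test, with a median of 0.09 and batch medians of 0.13, 0.10 and 0.10. Rrm2b, a ribonucleotide reductase subunit, went from 50.7 ± 4.11 to 58.1 ± 3.32 CPM (SD, n = 3, Padj = 0.122), and Gadd45a from 27.4 ± 9.96 to 33.4 ± 10.9 CPM (SD, n = 3, Padj = 0.241). Integrated stress response genes had 19 of 22 members higher, 4 of them at an unadjusted p under 0.05 (18.2%), with a median of 0.07, and their batch medians of 0.21, 0.01 and 0.05 were highest in batch 1. Atf4, its central factor, had 401 ± 61.1 and 440 ± 30.5 CPM (SD, n = 3, Padj = 0.317).

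Heat shock genes had 11 of 17 members lower with a median of -0.01. At an unadjusted p under 0.05 there was 1 on each side (5.88%, against 5.53% of all genes higher and 7.32% lower). The split of the 17 turned to 11 higher and 6 lower with upper-quartile scaling and to 10 higher and 7 lower among genes with at least 10 counts, so that no direction can be given. SRF and YAP targets of the cytoskeleton were 7 higher and 7 lower with a median of 0.00, and 2 were lower at an unadjusted p under 0.05 (14.3%, against 7.32% of all genes). Bag3, a cochaperone, was lower in each batch, at 46.1 ± 7.34 and 35.6 ± 5.89 CPM (SD, n = 3, log2 -0.37 ± 0.09, SE, Padj = 0.0755). Of 20 cytokines, growth factors and NF-kB genes, 7 passed the filter and 0 the test, with 1 higher at an unadjusted p under 0.05 (14.3%, against 5.53% of all genes). Tnf had 0 counts in the 6 libraries, and Il6, Il1b and Ccl7 at most 2. Hbegf, an EGF receptor ligand, had 1.19 ± 0.21 and 1.69 ± 0.07 CPM (SD, n = 3, Padj = 0.364). Sensory neuron identity genes were centred on 0.01, with Scn10a alone past the test. Ntrk3, the receptor of neurotrophin-3, had 30.0 ± 9.11 and 21.2 ± 3.82 CPM (SD, n = 3, Padj = 0.169).

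**Figure D4:**
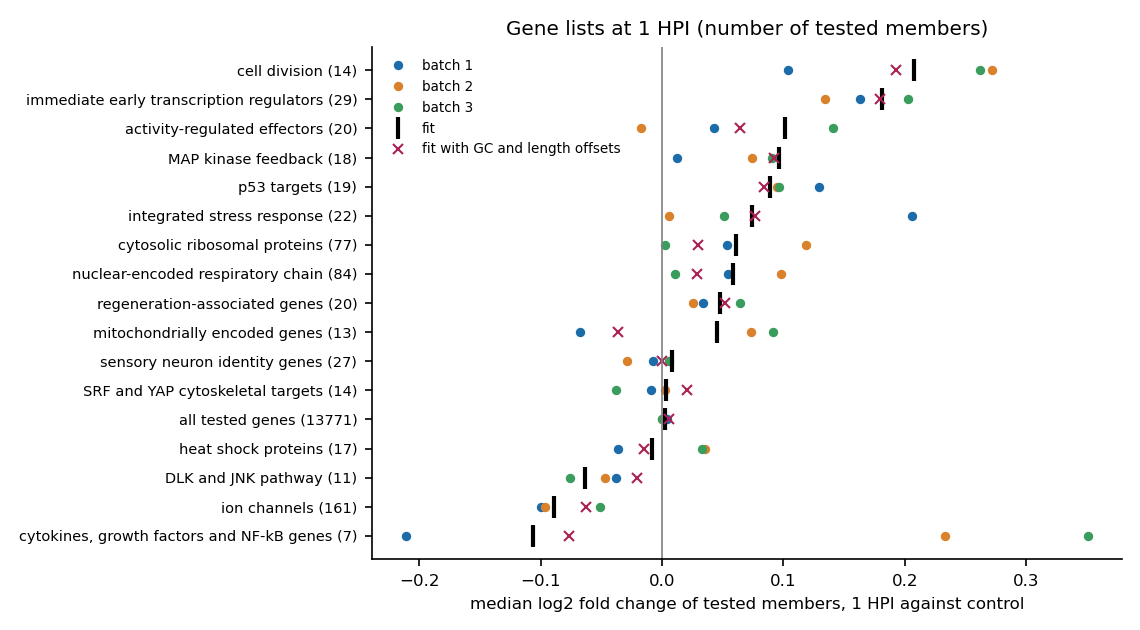
Median log2 fold change at 1 HPI against control (horizontal axis) over the tested members of each gene list, with the number of members in brackets, for the fit (bars), each batch (circles) and the fit with GC and length offsets (crosses). Immediate early regulators lie at 0.18 and ion channels at -0.09, and all genes lie at 0.00.

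The 1 HPI libraries were also set against those of 3 HPI, which received the same injury, to see which changes of the earliest time had altered by the next. By edgeR's quasi-likelihood test 0 genes differed at Padj under 0.05, while 509 were higher (3.70%) and 526 lower (3.82%) at 3 HPI at an unadjusted p under 0.05. DESeq2 gave 11 genes past the same limit, and 4 genes passed in edgeR when the 16 HPI library with high rRNA was left out. Of the 13 genes higher at 1 HPI, 11 had lower values at 3 HPI (50.6% of all genes did), 9 of them at an unadjusted p under 0.05, and of the 25 lower genes 22 had higher values at 3 HPI (49.4% of all genes did), 7 of them at that limit. Both sets were chosen on the 1 HPI libraries that enter this contrast, a choice that by itself favours values nearer to control at the next time, so these counts describe the sets and support nothing. Fam122b went from 9.96 ± 2.91 to 5.93 ± 1.18 CPM (SD, n = 3), against 6.33 ± 1.32 CPM in control, with a log2 difference of -0.74 ± 0.12 between 3 and 1 HPI (SE, Padj = 0.0675). Mt2 went from 80.4 ± 9.13 to 58.1 ± 9.55 CPM (SD, n = 3), near the control level of 57.3 ± 9.92, at a log2 difference of -0.47 ± 0.09 (SE, Padj = 0.135). Hmgb2 went from 13.49 ± 2.34 to 8.98 ± 1.69 CPM, against 8.13 ± 2.49 in control (SD, n = 3), at -0.59 ± 0.12 (SE, Padj = 0.150). These 3 were among the 11 genes of DESeq2, with Padj of 0.0060, 0.00344 and 0.0360. Abca7 had the largest difference toward control among the 25 lower genes, at log2 0.40 ± 0.08 between 3 and 1 HPI (SE, Padj = 0.150). It too was among the 11 genes of DESeq2, with Padj of 0.0060.

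Fos, Fosb and Arc stayed high. Fos had 6.96 ± 1.93 CPM at 3 HPI, 7.11 ± 0.67 at 8, 3.60 ± 0.55 at 16 and 2.68 ± 0.30 at 24 HPI (SD, n = 3), above the 1.11 ± 0.65 CPM of control throughout. Fosb ran at 1.96 ± 0.84, 1.15 ± 0.53, 1.82 ± 0.90 and 1.61 ± 0.26 CPM over the same times, against 0.304 ± 0.088 CPM in control. Arc went on to 5.05 ± 0.32 CPM at 16 HPI, and Zfp185 went from 1.87 ± 0.70 CPM at 1 HPI to 0.974 ± 0.38 at 3 HPI and 1.67 ± 0.58 at 16 HPI. Against control, Fos, Fosb and Arc passed the test at 3, 8, 16 and 24 HPI. At 3 HPI 6 genes were higher (0.0436%) and 20 lower (0.145%) over all genes tested. These comparisons all share the 3 control libraries, so the values stand side by side and are not independent.

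Jun had its lowest mean at 1 HPI and its highest at 8 HPI. From 29.5 ± 9.88 CPM at 1 HPI it went to 35.6 ± 11.5 at 3 HPI and 80.4 ± 16.1 at 8 HPI (SD, n = 3), when its log2 fold change against control was 1.03 (Padj = 1.46e-06). Junb had 3.17 ± 0.62, 3.52 ± 1.28 and 5.33 ± 1.97 CPM at 3, 8 and 16 HPI, and Fosl2 12.98 ± 2.11, 24.0 ± 4.89 and 30.9 ± 2.05 CPM (SD, n = 3). Jund stayed between 104 and 128 CPM. Of the 25 genes lower at 1 HPI, all 25 were below control at 3, 8, 16 and 24 HPI as well, with 4, 20, 22 and 24 of them past the test at those times, where 0.145%, 3.9%, 11.5% and 9.03% of all genes were. The 25 were chosen as low against the same 3 control libraries, which partly fixes their side at the later times, so the counts are a description. Asic3 stood at log2 -0.30, -0.48, -0.77 and -0.51 against control, and Scn8a at -0.23, -0.32, -0.71 and -0.70.

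**Figure D5:**
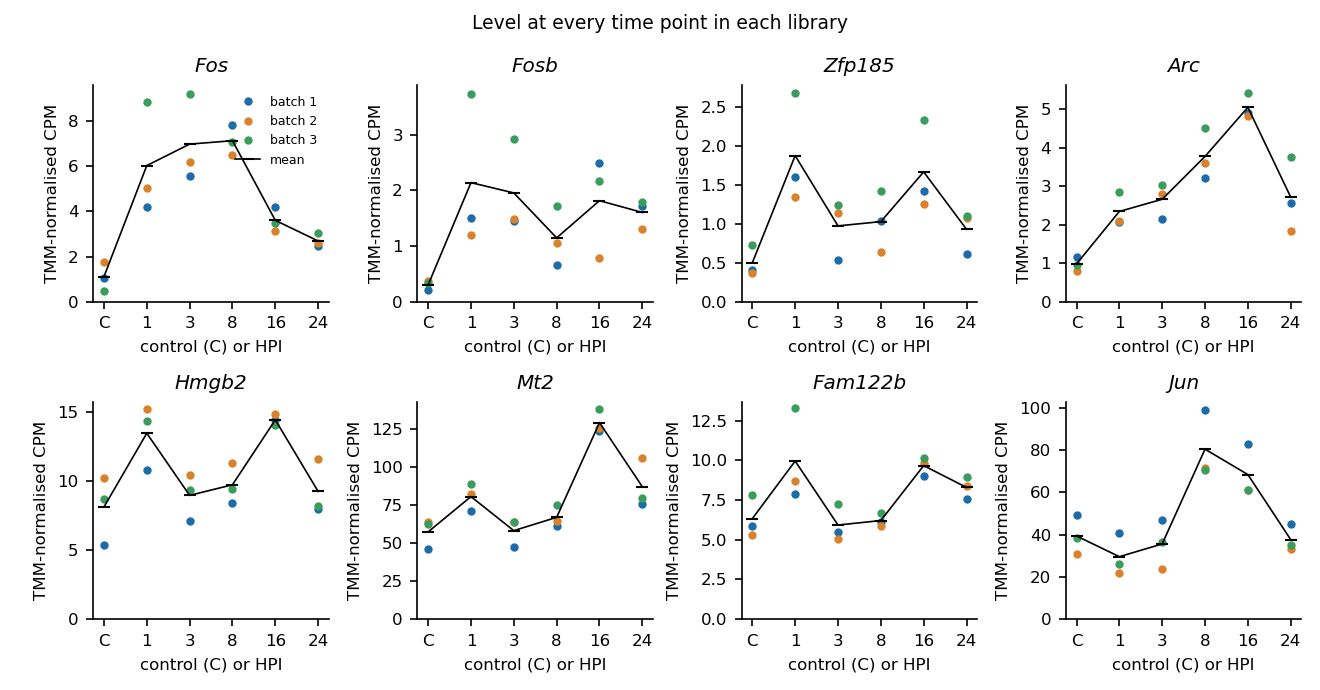
TMM-normalised CPM (vertical axis, from 0) of 8 genes in every library of control (C) and of 1, 3, 8, 16 and 24 HPI, with circles coloured by batch and a line through the means. Fos is at 6.01 CPM at 1 HPI and 7.11 CPM at 8 HPI, Hmgb2 and Mt2 lie near control at 3 HPI and above it at 16 HPI, and Jun is lowest at 1 HPI and highest at 8 HPI.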

How the data were processed

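RNA of eDRG spot cultures was sequenced in 18 libraries, of which 3 control and 3 of 1 HPI were compared. The authors depleted rRNA, made cDNA with a SMARTer kit and, per the labels, used STAR, HTSeq and the mm10 genome, whereas the paper's methods name cutadapt, STAR and featureCounts. The deposited values are raw counts per gene with 5 closing entries for reads on no gene, which were kept out of library sizes. The strand setting of the counting is not given in the sources used here, so overlapping antisense genes cannot be separated. Gene names, positions, exon length and GC content came from GENCODE vM21 on GRCm38, which matched 47224 of 47643 identifiers, and promoters from RefSeq on GRCm38.p6.

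Genes over 1 CPM in at least 3 of 18 libraries were tested in R 4.3.3 with edgeR 4.0.16, after TMM normalisation, in a single quasi-likelihood model of time point and replicate number over 18 libraries (two-sided, Benjamini-Hochberg adjustment). CPM values are TMM-normalised, apart from those of summed marker lists. Fold changes within a batch had a prior count of 2 on the log2 CPM scale. Gene lists were described by counts and medians without a set test. Replicate numbers were kept as a block because deviations from the group means correlated at 0.739, 0.612 and 0.765 between same-numbered libraries and at -0.17 to -0.565 between the others. Centring each group on its own mean favours negative values between the others, so only the same-numbered values bear on the choice. No pair of libraries held identical counts. The method was tested on simulated counts with planted changes over 2-fold only, so smaller changes were not covered by it.

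Named genes were those over 2-fold, up to 15 in each direction with the smallest p among those past the test and moving the same way in 3 batches, up to 4 members of each list by p, and the Fos and Jun families at every time. The comparison, members and lists were chosen with earlier results of these data known. Alternatives were DESeq2 1.42.0, other scaling factors, other filters, no replicate block, the compared groups alone, rRNA and mitochondrial genes left out, GC and length offsets by splines with 5 degrees of freedom, and each library left out in turn. DESeq2 without independent filtering and the 16 HPI library left out were added after the data were seen. SEs come from the spread between libraries, and the limit of 3 counts covers counting error only.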

Additional observations from a re-analysis of the deposited data

How the results depend on the processing

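The 29 named genes past the test kept their direction in every alternative run that scored them. These runs use the same libraries on which the genes were chosen, which by itself favours this. Of the 29, 0 passed in all runs, since without the replicate block 0 genes passed and 0 were over 2-fold (457 at an unadjusted p under 0.05). That fit gave Fos an adjusted p of 0.0521, and 0 genes for 3 against 1 HPI (256 unadjusted). Of 82 named genes not past the test, 20 passed in some alternative. The count of 4 genes over 2-fold was 0 with DESeq2, which gave the 4 no adjusted p under its independent filtering (5874 genes had none), and 4 without that filtering. It was 0 among the 11870 genes over 1 CPM in all 18 libraries, a filter that removes them, and 10 with the compared groups alone. The count of 38 was 136 with DESeq2, 111 without its filtering, 65 among genes with at least 10 counts, 448 with the compared groups alone, 60 with rRNA and mitochondrial genes left out and 14 with GC and length offsets, and the cause was not tested. For 3 against 1 HPI the count of 0 was 11 and 10 with DESeq2, with and without filtering, 5 among genes with at least 10 counts, 16 with the compared groups alone and 4 without the 16 HPI library. With 1 library left out in turn, these counts ran from 1 to 5, from 3 to 65 and from 0 to 1.

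List medians that moved by more than the spread between batches were those of the DLK and JNK list, at -0.0205 with offsets, of progenitor markers and regeneration genes, at -0.0792 and 0.0237 under the strictest filter, and of residual rRNA, at 1.29 without the block. With a library left out they ran from -0.0911 to -0.045 for DLK and JNK, 0.024 to 0.133 for MAP kinase feedback, -0.0344 to 0.0234 for SRF and YAP targets, 0.135 to 0.228 for immediate early regulators, -0.0845 to -0.0261 for progenitor markers, 0.0191 to 0.109 for the respiratory chain, 0.0273 (without 1 HPI replicate 1) to 0.104 (without 1 HPI replicate 3) for ribosomal proteins, 0.0693 to 0.126 for p53 targets, 0.0206 to 0.0753 for regeneration genes, 0.504 to 1.53 for residual rRNA and -0.0215 to 0.0238 for sensory neuron markers. Depth limits the scarce genes most, as the 4 genes over 2-fold had means of 0.304 to 1.11 CPM in control, and a change in a gene under 3 counts was not detectable.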

Other observations

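Transcripts of the protein synthesis and energy machinery lay slightly above control. Of 77 tested cytosolic ribosomal protein genes, 66 were higher (85.7%, against 50.7% of all genes), with a median log2 fold change of 0.06 and batch medians of 0.05, 0.12 and 0.00. Without 1 library the median ran from 0.0273 (55 higher, without 1 HPI replicate 1) to 0.104 (75 higher, without 1 HPI replicate 3). Of 84 nuclear-encoded respiratory chain genes, 67 were higher (79.8%), with a median of 0.06 and batch medians of 0.05, 0.10 and 0.01. Rpl9 went from 157 ± 19.8 to 176 ± 28.0 CPM (SD, n = 3, Padj = 0.179) and Ndufs4, a complex I subunit, from 47.9 ± 5.73 to 53.4 ± 5.14 CPM (SD, n = 3, Padj = 0.198). In both lists 0 members passed edgeR's test. At an unadjusted p under 0.05, 6 ribosomal (7.79%) and 3 respiratory chain genes (3.57%) were higher, against 5.53% of all genes. With GC and length offsets these were 3 (3.9%) and 0, against 5.27%. The genes are short, with median exon lengths of 1781 and 1631 bases, and with GC and length offsets both medians were 0.03. Genes encoded in the mitochondrion had a median of 0.05, or -0.04 with the offsets, and took 15.2% to 19.8% of the control counts and 16.1% to 18.8% of the 1 HPI counts.

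Cell division genes were scarce and on the higher side. Of 14 tested, 11 were higher and 4 had an unadjusted p under 0.05 (28.6%, against 5.53%), with a median of 0.21 and batch medians of 0.10, 0.27 and 0.26, and 0 passed the test. Mcm2, a replication helicase subunit, had 9.50 ± 1.42 CPM in control and 11.7 ± 1.02 CPM at 1 HPI (SD, n = 3, Padj = 0.169), Pcna 17.5 ± 1.604 and 20.6 ± 2.03 CPM (SD, n = 3, Padj = 0.201), and Ccnb1, a mitotic cyclin, 0.643 ± 0.175 and 1.03 ± 0.085 CPM (SD, n = 3, Padj = 0.367). Erythroid markers summed to 4.85, 15.6 and 18.2 CPM in the control replicates and 4.23, 7.44 and 14.6 CPM at 1 HPI. Hba-a1, whose reads may be shared with the near-identical Hba-a2, had a log2 difference of -0.98 ± 0.32 (SE, Padj = 0.207) and the embryonic globin Hba-x one of -1.10 ± 0.39 (SE, Padj = 0.240). Residual rRNA genes had a median of 1.02 with no member at an unadjusted p under 0.05, and their medians within batches were 0.55, 0.65 and 0.15.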
